A study of Caenorhabditis elegans with 9 samples.

Results

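Cassette exons of synchronized L4 worms were compared between *smg-2* mutants and wild-type, as the difference in inclusion that goes with loss of a core factor of nonsense-mediated mRNA decay (NMD). Of the 620 cassette exons in the *smg-2* table, the 498 whose *smg-2* values are not a repeat of those in the *smg-1* table were used, and each is measured as percent spliced in (PSI), the share of an event's junction usage that does not skip the exon. Wild-type is the strain N2, and *smg-2* is labelled as a knockout (CB4043) with N2 as its strain, with 3 replicates each. No replicate received a treatment, and RNA came from whole animals, so all tissues are mixed in each library and fewer cells of a type cannot be told apart from less RNA per cell. The authors describe the replicates as independent and biological. Nothing in the labels says whether they were separate cultures, so p-values measure the spread between these libraries. The tables hold no cassette exon of *smg-2* itself, so the mutation could not be checked from them, and they hold no gene levels from which tissue markers could be read.

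NMD is a surveillance pathway that destroys mRNAs on which translation ends too early. SMG-2, known as UPF1 in humans, is the RNA helicase at its centre and is recruited to ribosomes that stop at such a codon. In many animals a stop codon is read as premature when an exon junction complex, left on the mRNA by splicing, remains downstream of it. An exon that carries a stop codon or shifts the reading frame when it is included is called a poison exon, and an exon whose skipping does so is called an essential exon. Genes for splicing factors are well known to hold such exons, through which the protein can limit its own synthesis. An NMD substrate is scarce while the pathway works, so its share of a gene's mRNA is measured best in a mutant that lacks the pathway.

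The sequences of 4 exons that were seldom included in wild-type worms show how a stop codon is met. They were read from the *C. elegans* genome (WBcel235), 5′ to 3′ on the coding strand, and capitals mark the first stop codon in the frame of the longest coding transcript that fits. The exons are those of *rbm-39* at chrIV:1013075-1013140 (plus strand), *mig-22* at chrIII:8766524-8766556 (minus strand), *rps-22* at chrIII:1950821-1950996 (plus strand) and *rsp-4* at chrII:5388150-5388335 (minus strand), the last 2 shown only as far as their stop codon.
rbm-39: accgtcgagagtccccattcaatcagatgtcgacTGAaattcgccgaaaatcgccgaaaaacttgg
mig-22: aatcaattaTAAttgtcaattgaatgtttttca
rps-22: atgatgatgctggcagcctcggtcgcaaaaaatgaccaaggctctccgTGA
rsp-4: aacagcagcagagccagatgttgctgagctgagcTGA
The stop codon began at base 35 of the 66-nt *rbm-39* exon, base 10 of the 33-nt *mig-22* exon, base 49 of the 176-nt *rps-22* exon and base 35 of the 186-nt *rsp-4* exon.

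For exons that wild-type worms mostly include, the mRNA that matters is the skipped one. The 5 runs that follow begin 30 nt before the junction that skips the exon and end at the first stop codon in the new frame, in capitals. The skipped exons lie at chrV:10238292-10238343 (*fubl-1*, minus strand), chrX:17434917-17434986 (*fubl-3*, plus strand), chrIV:17108480-17108552 (*sfa-1*, minus strand), chrIII:4198869-4199115 (*asd-1*, plus strand) and chrII:166071-166150 (*etr-1*, plus strand).
fubl-1: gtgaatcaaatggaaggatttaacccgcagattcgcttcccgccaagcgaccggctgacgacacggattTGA
fubl-3: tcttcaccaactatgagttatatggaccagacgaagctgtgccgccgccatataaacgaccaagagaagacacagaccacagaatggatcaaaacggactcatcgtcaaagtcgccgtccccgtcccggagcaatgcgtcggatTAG
sfa-1: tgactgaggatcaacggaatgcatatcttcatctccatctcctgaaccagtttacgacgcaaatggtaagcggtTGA
asd-1: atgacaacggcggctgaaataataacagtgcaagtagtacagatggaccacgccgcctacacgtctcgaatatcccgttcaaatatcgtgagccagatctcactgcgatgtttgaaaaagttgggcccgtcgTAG
etr-1: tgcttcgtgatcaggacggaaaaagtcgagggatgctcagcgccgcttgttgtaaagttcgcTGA
None of these 5 exons has a length divisible by 3, and the new frame met its stop codon after 39 nt in *fubl-1*, 114 nt in *fubl-3*, 44 nt in *sfa-1*, 102 nt in *asd-1* and 32 nt in *etr-1*. The predicted proteins fell from 589, 641, 699, 404 and 589 amino acids to 20, 44, 236, 44 and 193, in the same order.

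Between *smg-2* and wild-type, inclusion differed for 75 of the 498 exons, or 15.1% of those tested, each in a different gene. The mutation cannot be told apart from other differences between the 2 strains. An exon was called when its mean PSI differed by over 10 points and limma on the logit of PSI gave an adjusted p under 0.05. Inclusion rose for 34 exons (6.83% of those tested) by a median of 17.8 points, and fell for 41 (8.23%) by a median of 24.1 points. The number that rose was 21 without *smg-2* replicate 2. If the deposited usage counts the 2 inclusion junctions of an exon, so that inclusion reads must be halved, 18 rose and 47 fell. Exons that rose went from a median wild-type PSI of 2.70% to 22.1% in *smg-2*, and exons that fell from 94.1% to 69.6%. The median change of the 423 exons not called was 5.20 points, beside a median SD between replicates of 4.89 points in wild-type and 6.38 points in *smg-2*. Groups without overlap were found for 146 of all 498 exons, among them all 34 that rose and all 41 that fell. For a called exon, separate groups thus add nothing to the call.

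**Figure D1:**
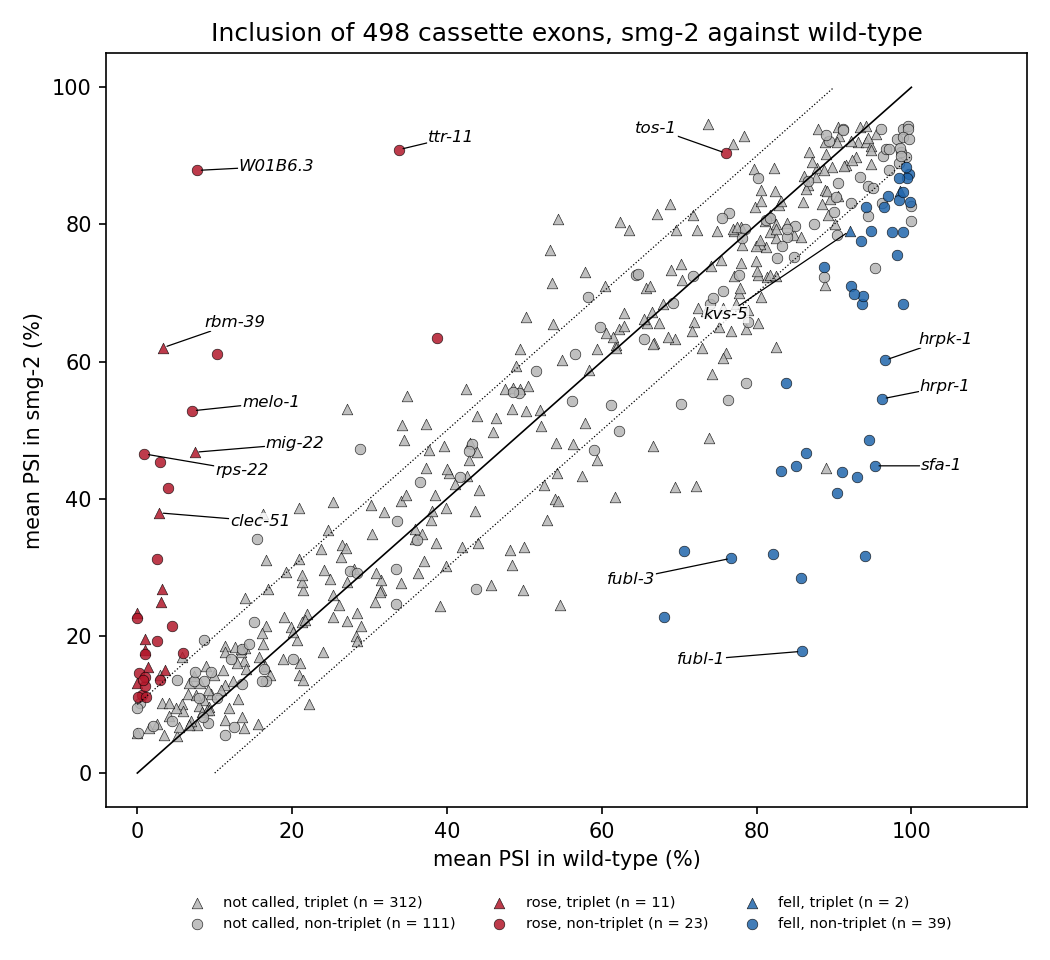
Mean PSI of 498 cassette exons in wild-type (x axis, %) and *smg-2* (y axis, %), with 3 libraries per group. Triangles are triplet and circles non-triplet exons, red exons rose, blue exons fell, grey exons were not called, and dotted lines mark a difference of 10 points. Most red exons lie along the left edge and most blue exons towards the right, away from the diagonal on which most grey exons lie.

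Most calls were at the extremes of inclusion in wild-type, as the scatter of mean PSI shows. Of 40 exons with a wild-type PSI under 5%, 26 rose, and of 39 with a wild-type PSI over 95%, 17 fell. Among the 341 exons with a wild-type PSI of 10% to 90%, 4 rose and 11 fell. Mean PSI in *smg-2* ran from 5.39% to 94.6% over the deposited exons while wild-type means ran from 0% to 100%, so exons at either extreme of wild-type could only move inwards and would not be in the table without a shift. Calls were also counted by exon length, with no test between the 2 kinds of exon. The shares called, here and beside the gene lists that follow, include exons present only through such a shift. They describe the deposited exons and are no rate for cassette exons in general. Among non-triplet exons, whose length is not a multiple of 3, 62 of 173 were called (35.8%), of which 23 rose and 39 fell. Among triplet exons, 13 of 325 were called (4.00%), of which 11 rose and 2 fell.

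The predicted reading frame was then set beside the measured change. A stop codon was counted as early when it lay over 80 nt upstream of the last exon junction, that is, over 55 nt upstream of an exon junction complex placed 25 nt before that junction. Of the 474 exons within the coding sequence of an annotated transcript, 50 gave an early stop only when included, and 27 of these rose while none fell (median change 11.6 points). Another 67 gave an early stop only when skipped, of which 32 fell and 1 rose (median change -13.1 points). Of the 354 exons that gave none in either isoform, 6 rose and 5 fell, with a median change of 0.40 points over the class. The median over all 498 exons was -0.13 points. Of all 34 exons that rose, 26 had a wild-type PSI under 5%, and 17 of the 41 that fell had one over 95%. Those exons could only move inwards, so their direction is no test of the predicted stop codon.

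**Figure D2:**
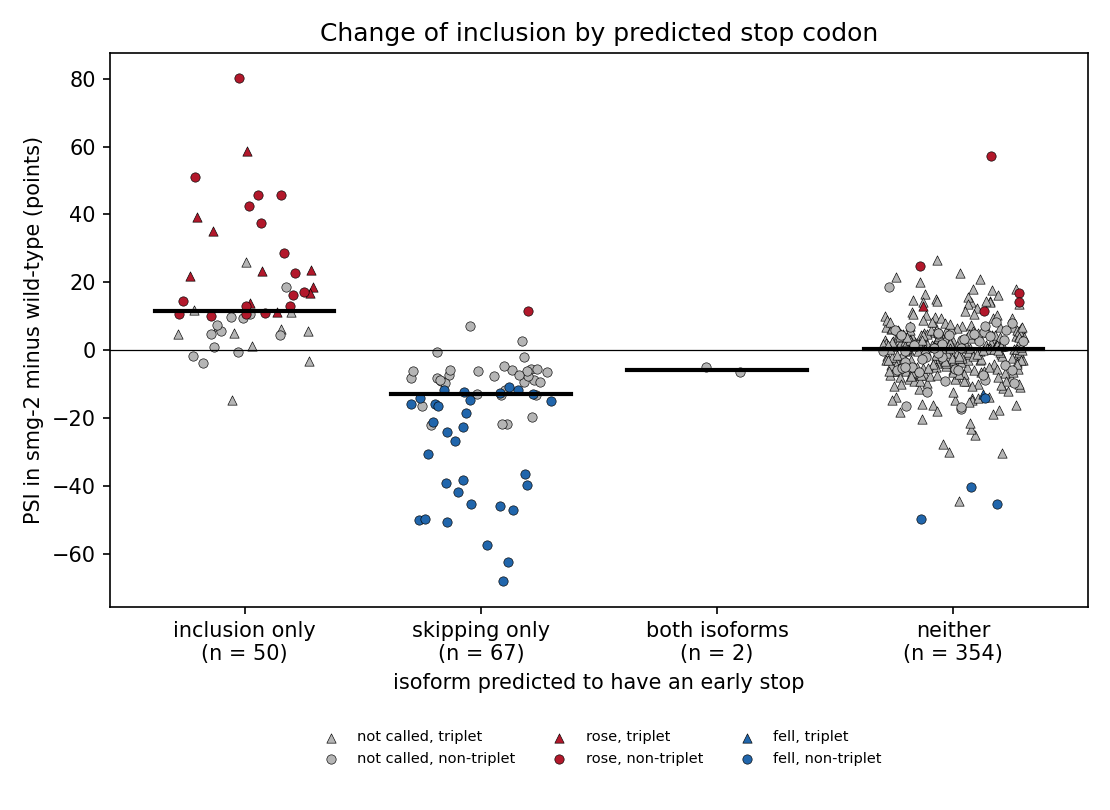
Difference in mean PSI, *smg-2* minus wild-type (y axis, points), for coding exons grouped by the isoform predicted to have an early stop codon (x axis). Each symbol is an exon, triangles are triplet and circles non-triplet, red exons rose, blue exons fell, and black bars are medians. All red symbols but one in the first 2 classes lie under inclusion only, and all blue ones under skipping only.

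Exons that rose and exons that fell differed in how the predicted stop codon arose. All 11 triplet exons that rose held an in-frame stop codon, and so did 16 of the 23 non-triplet exons that rose, 27 in all. None of the 37 coding exons that fell held one. Skipping shifted the frame for all of them but the triplet exon of *kvs-5*, whose isoforms share the normal stop codon. Over all exons, called or not, 21 triplet exons gave an early stop only when included and 0 only when skipped. For triplet exons the contrast was thus set by the prediction. Only 14 of the 34 exons that rose are exons of the Ensembl annotation, against 39 of the 41 that fell and 432 of all 498. The isoform that gained share encoded a median of 132 amino acids for exons that rose, where the other isoform encoded 318.5, and 118 against 515 for exons that fell. Its stop codon lay a median of 566.5 nt and 529 nt upstream of the last junction.

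In 12 called coding exons the isoform that gained share had no early stop, and those among them outside the naming rule are given here because of their values. In 10 of them, each with a shifted frame or a stop codon in the exon, the stop codon of the isoform that gained share lay within 80 nt of the last junction or past it. The 170-nt exon of *ddo-1*, a D-aspartate oxidase gene, fell from 90.4% ± 1.01 (SD, n = 3) to 40.8% ± 13.7, with the stop of the skipped isoform 43 nt upstream of the last junction. The 248-nt exon of *hrpf-1* had that stop 39 nt upstream, and the 67-nt exon of *tos-1*, which rose, had the stop of its included isoform 47 nt upstream. The 178-nt exon of *ZK418.13* fell by 45.3 points although the stop of its skipped isoform lay in the last exon. In *unc-132* the 265-nt exon rose from 3.88%, 4.20% and 9.51% to 19.8%, 13.0% and 19.6%, where inclusion gives 501 amino acids and skipping gives a shorter protein with a stop 824 nt upstream of the last junction. This exon rose although the early stop is in the isoform that lost share, and the call, at an adjusted p of 0.0469 (limma), held without wild-type replicate 3 but was lost on leaving out each of the other libraries and with inclusion reads halved. That on *tos-1* held without *smg-2* replicate 1 and was lost on leaving out each of the others. The last of the 12 is a triplet exon of *kvs-5*, described with the ion channels.

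Among exons that rose, that of *rbm-39*, which encodes a U2AF-like splicing factor, had the largest change at over 100 junction reads per library. Its PSI was 2.83%, 3.36% and 3.77% in wild-type and 60.3%, 58.2% and 67.6% in *smg-2*. The groups were far apart, and the isoform with a 49-residue reading frame became the commoner of the pair (limma, adjusted p = 0.000445). The 176-nt exon of *rps-22*, a protein of the small ribosomal subunit, stood at 0.99%, 0.89% and 0.89% in wild-type and at 45.2%, 50.6% and 43.8% in *smg-2*. This was the most deeply read of the called exons, with a median of 20608 junction reads per library, and its wild-type libraries were nearly alike. In *melo-1* a 227-nt exon went from 6.96%, 6.16% and 8.20% to 54%, 43.9% and 60.5%. The *melo-1* libraries of each group also stood apart, with *smg-2* replicate 2 lowest.

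The other exons among the 12 largest rises were in genes of unrelated function. The 33-nt exon of *mig-22*, a chondroitin polymerizing factor needed for cell migration, was at 14.8%, 0.81% and 6.67% in wild-type and at 49.7%, 44.8% and 45.9% in *smg-2*. The wild-type values were uneven while the *smg-2* values were close together, and the groups did not overlap (limma, adjusted p = 0.0290). The 240-nt exon of the C-type lectin gene *clec-51* rose from 2.82% ± 0.889 to 37.9% ± 7.13 (SD, n = 3), and an 82-nt exon of *sav-1* from 10.3% ± 9.99 to 61.2% ± 7.55. Rises of 28.7 to 42.5 points were measured in *K08B12.3*, *C50H2.13* and *C05D12.3*. The exon of *Y105E8A.1* rose by 24.8 points from the highest wild-type level of these, 38.7%. Among these other exons, the largest changes had the thinnest reads. The exons of *W01B6.3* (a rise of 80.1 points) and *ttr-11* (57.1 points) had medians of 12 and 11 reads over their junctions. In *W01B6.3*, 1 wild-type library had no read over the junctions, so the fit used 5 libraries.

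Exons in genes of RNA-binding proteins were counted by role, beside the 15.1% called over all exons. Of 4 exons in genes for SR proteins and their partners 3 were called, of which 2 rose and 1 fell. Of 14 in genes for other RNA-binding proteins 9 were called, of which 1 rose and 8 fell, and the median change was -24.8 points, beside a median of -0.13 points over all exons. The lists were drawn up knowing which of these genes changed, so the counts are a description. Of these 14 exons 12 are non-triplet, a class of which 35.8% was called over all genes.

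**Figure D3:**
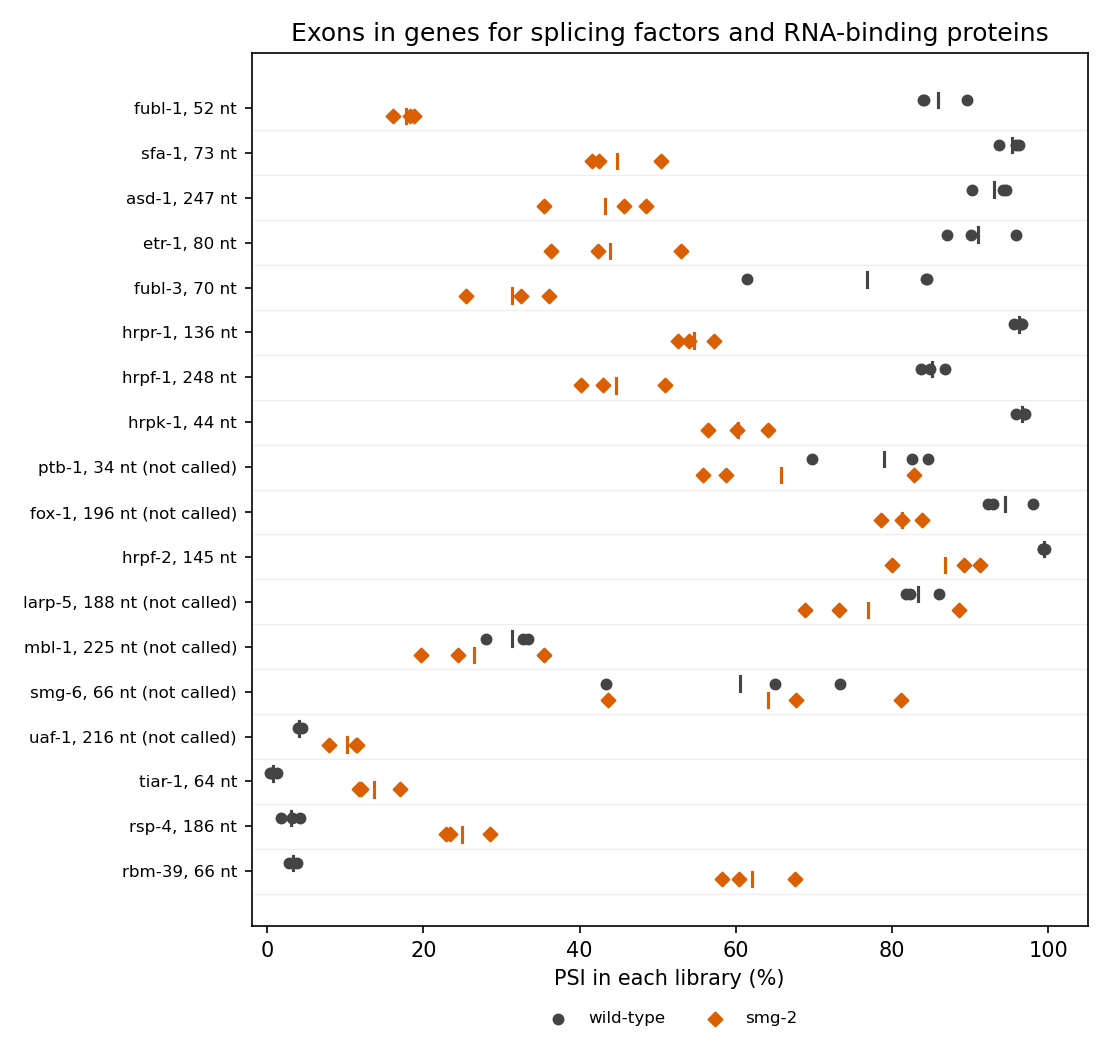
PSI in each library (x axis, %) for the exons in genes of SR proteins, their partners and other RNA-binding proteins, ordered from the largest fall to the largest rise. Grey circles are wild-type libraries, orange diamonds are *smg-2* libraries, and vertical bars are group means. The groups are separate for every called exon, from *fubl-1* at the top to *rbm-39* at the bottom. They are separate for all 75 calls over all genes too, and for 146 of all 498 exons.

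The largest fall was that of the 52-nt exon of *fubl-1*, which encodes a KH-domain protein related to human FUBP1. Its PSI was 83.9%, 84.1% and 89.6% in wild-type and 18.8%, 16.2% and 18.3% in *smg-2*, a fall of 68.1 points (limma, adjusted p = 0.000545). The skipped isoform thus went from the rarer of the pair to the commoner in each of the 3 mutant libraries. The paralog *fubl-3* lost its 70-nt exon from 84.4%, 84.4% and 61.4% to 32.4%, 36.1% and 25.5%. Wild-type replicate 3 was lowest of its group but remained above each *smg-2* library, and both genes have the changed exon as the second of the transcript. The call on *fubl-3* was lost without wild-type replicate 1 (adjusted p = 0.0591, a fall of 41.6 points).

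In *sfa-1*, the branch point binding protein of the spliceosome, the 73-nt exon stood at 96.3%, 95.9% and 93.7% in wild-type and at 50.4%, 41.6% and 42.4% in *smg-2*. The 247-nt exon of *asd-1*, a worm member of the RBFOX family, stood at 94.2%, 94.6% and 90.2% and then at 45.7%, 48.4% and 35.5%. The 80-nt exon of *etr-1*, a CELF family gene active in muscle, stood at 87.0%, 95.9% and 90.1% and then at 36.3%, 42.3% and 53%. In all 3 genes the mutant libraries lay near an even split of isoforms and well below every wild-type library.

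Non-triplet exons of *hrpr-1*, *hrpk-1*, *hrpf-1* and *hrpf-2*, all from hnRNP families, fell as well. In *hrpr-1*, of the hnRNP R and Q family, a 136-nt exon went from 95.6%, 96.6% and 96.6% to 52.5%, 54.1% and 57.1%. In *hrpk-1*, of the hnRNP K family, a 44-nt exon went from 96.8%, 95.9% and 97.1% to 60.1%, 64.1% and 56.4%. Both genes had replicates within a few points of each other in either group. The exon of *hrpf-1*, of the hnRNP F and H family, fell by 40.4 points, and a 145-nt exon of *hrpf-2* by 12.6 points, from 99.4% ± 0.115 to 86.8% ± 5.96 (SD, n = 3). Without *smg-2* replicate 3 the fall in *hrpf-2* was 9.21 points, under the size required.

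A pair of rises and several smaller differences were also measured in this group. The exons given here as not called are outside the naming rule, and those of *mbl-1* and *larp-5*, not called either, are not described. The 186-nt exon of *rsp-4*, an SR protein gene, rose from 3.22%, 1.82% and 4.14% to 23.4%, 22.9% and 28.5%. The 64-nt exon of *tiar-1*, whose protein belongs to the TIA-1 family of stress granule components, rose from 1.26%, 0.34% and 0.44% to 12%, 11.8% and 17.0%. The call on *tiar-1* was lost with inclusion reads halved. In both exons the groups were separate, with *smg-2* replicate 3 highest in each. The 216-nt exon of *uaf-1*, the large subunit of U2AF, had an adjusted p of 0.0394 (limma) but a difference of 6.14 points, under the size required. The 196-nt exon of *fox-1*, another RBFOX gene, differed by -13.2 points with an adjusted p of 0.0530 (limma). The 34-nt exon of *ptb-1*, the polypyrimidine tract binding protein, differed by -13.2 points with overlapping groups (adjusted p = 0.492, limma), and the 66-nt exon of the NMD gene *smg-6* by 3.59 points (adjusted p = 0.871, limma).

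Large falls were not confined to RNA-binding proteins. The 74-nt exon of *Y46E12BL.2* fell by 62.4 points, the 107-nt exon of the phosphatase gene *ilkp-1* by 57.4 points, and the 535-nt exon of *cbl-1*, a cystathionine beta-lyase gene, by 46.0 points. The *cbl-1* exon went from 95.8%, 92.9% and 94.8% to 50%, 45.5% and 50%. Its replicates were among the closest of the large falls. The 173-nt exon of *B0244.10* fell by 50.1 points on a median of 8.5 junction reads per library, the fewest of all called exons.

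Both exons listed under ribosomal proteins were called, the rise in *rps-22* and a fall in a 56-nt exon that the tables name *rla-2*. The latter went from 98.2%, 98.5% and 100% to 78.5%, 86.3% and 71.7% (limma, adjusted p = 0.00130), with no overlap. At chrIV:13369362-13369417 on the minus strand it overlaps no exon of *rla-2* in the annotation. It is the first exon of the next gene, *agt-1*, extended by 5 nt at its 5′ end. No reading frame was assigned to it.

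The other lists are small, and their counts stand beside 15.1% called over all exons, 35.8% of non-triplet and 4.00% of triplet exons. Of 14 exons in transcription factor genes, 8 of them non-triplet, 1 was called, the 136-nt exon of *ztf-4*, a zinc finger gene, which fell from 91.0%, 94.2% and 92.5% to 66.3%, 72.7% and 70.6%. Of 15 in genes of polarity and signalling, 6 of them non-triplet, 1 was called, a 201-nt triplet exon of *ags-3*, an activator of G protein signalling, which rose from 1.06% ± 0.925 to 17.9% ± 6.93 (SD, n = 3). This call too was lost with inclusion reads halved, and with PSI left untransformed. The stop codon began at base 37 and left 132 of 579 amino acids. None of 18 exons in muscle and cytoskeleton genes was called, of which 3 are non-triplet. The largest differences there were -23.1 points in *ifbp-1* (81 nt, adjusted p = 0.213), -16.1 points in the titin gene *ttn-1* (1278 nt, adjusted p = 0.591) and -14.8 points in *lim-8* (543 nt, adjusted p = 0.512), all from limma. Of these 3 exons, the groups overlapped in *ttn-1* and *lim-8* but not in *ifbp-1*.

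The list of ion channel genes, which also holds the G protein-coupled receptor gene *gar-2*, gave 1 call among 20 exons. Of these 19 are triplet, a class of which 4.00% was called over all genes. The call was on a 24-nt exon of the voltage-gated potassium channel gene *kvs-5* at chrIV:750037-750060 (plus strand). A 24-nt exon of *egl-2*, an EAG family potassium channel gene, at chrV:1294497-1294520 (minus strand), had the larger difference but was not called. Both are printed because their 8 codons hold no stop codon, so that the skipped and included mRNAs encode channels differing by 8 residues.
kvs-5: gatgaagctgctgagttgcagaag
egl-2: tctccgaccgttctacttaatcag
PSI of the *kvs-5* exon was 91.1%, 92.9% and 92.0% in wild-type and 80.5%, 72.3% and 84.3% in *smg-2*. The wild-type libraries stood together above all mutant libraries, but the adjusted p of 0.0394 (limma) became 0.0911 to 0.108 when any library other than *smg-2* replicate 3 was left out. In *smg-1* mutants, which share the wild-type libraries, the same exon stood at 87.4%, 91.0% and 80%. PSI of the *egl-2* exon was 88.5%, 100% and 78.6% in wild-type and 36.4%, 40% and 57.1% in *smg-2*, on a median of 11 junction reads per library (limma, adjusted p = 0.0579). In *smg-1* mutants it stood at 73.7%, 61.5% and 88.9%. The *smg-2* libraries were the lowest of all 9 for this exon. It was called without wild-type replicate 2 (adjusted p = 0.0234) or 3 (adjusted p = 0.0357).

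Of 40 triplet exons of at most 30 nt, 1 was called, that of *kvs-5*, beside 4.00% of all triplet exons, and the median difference was 2.11 points. After *egl-2*, the largest differences among those not called were 21.4 points in *kvs-1* (27 nt, adjusted p = 0.352) and 15.2 points in *W07E11.1* (30 nt, adjusted p = 0.380), both from limma and both with overlapping groups.

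Several frame-shifting exons also differed little between *smg-2* and wild-type. The 254-nt exon of the palmitoyltransferase gene *dhhc-4* was at 63.9%, 65.7% and 66.7% in wild-type and at 61.3%, 64.3% and 64.3% in *smg-2*. The 28-nt exon of the aquaporin gene *aqp-2* was at 57.8%, 60% and 50.8% and then at 57.1%, 62.4% and 43.3%. The 82-nt exon of the dynamin gene *dyn-1* was at 15.6%, 9.82% and 19.9% and then at 14.1%, 24.2% and 27.9%. For all 3 exons the groups overlapped, with differences of -2.13, -1.91 and 6.97 points (limma, adjusted p = 0.864, 0.923 and 0.529). In *aqp-2* and *dyn-1* neither isoform has an early stop, and the isoforms encode 285 and 290 amino acids in *aqp-2* and 830 and 838 in *dyn-1*. In *dhhc-4* the skipped frame met no stop codon within the annotated transcript used, while the fitting transcripts gave 5 coding outcomes. The authors describe the skipped *dhhc-4* isoform as the one with the longer C-terminus. The 147-nt triplet exon of the polarity gene *par-3* was at 86.4% ± 6.85 and 85.1% ± 5.28 (SD, n = 3). An early stop did not always go with a change. The 203-nt exon of the hypoxia factor gene *hif-1*, chosen here after its values were seen, gives an early stop 197 nt upstream of the last junction when included and was at 14.5%, 15.9% and 9.98% in wild-type and at 13.2%, 15.8% and 10.2% in *smg-2*.

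The junction reads behind the shares were also set side by side. Exons were called on the share, so one isoform had to gain on the other. The call fixes the direction of their ratio, but not the reads of either isoform or their sum. Reads of each isoform were divided by a factor per library, the median ratio over the 457 exons with a known total in all 6 libraries, a description added after the shares were known. In *fubl-1* the scaled reads of the skipped isoform were 36.2, 76.5 and 27.6 in wild-type and 847.7, 717.4 and 952.1 in *smg-2*. Those of the included isoform were 188.9, 402.7 and 237.2 and then 196.5, 138.3 and 212.7. The skipped isoform was higher in every mutant library, while the included isoform overlapped between the groups. Their sum went from 225.1, 479.2 and 264.8 to 1044.1, 855.6 and 1164.8, higher in every mutant library. In *rbm-39* the included isoform went from 7.2, 15 and 8.0 to 300.7, 336.9 and 368.6, and the skipped isoform from 248.4, 431.4 and 203.9 to 197.7, 242.2 and 176.9. Their sum was 255.6, 446.4 and 211.8 and then 498.4, 579.1 and 545.5, again without overlap.

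**Figure D4:**
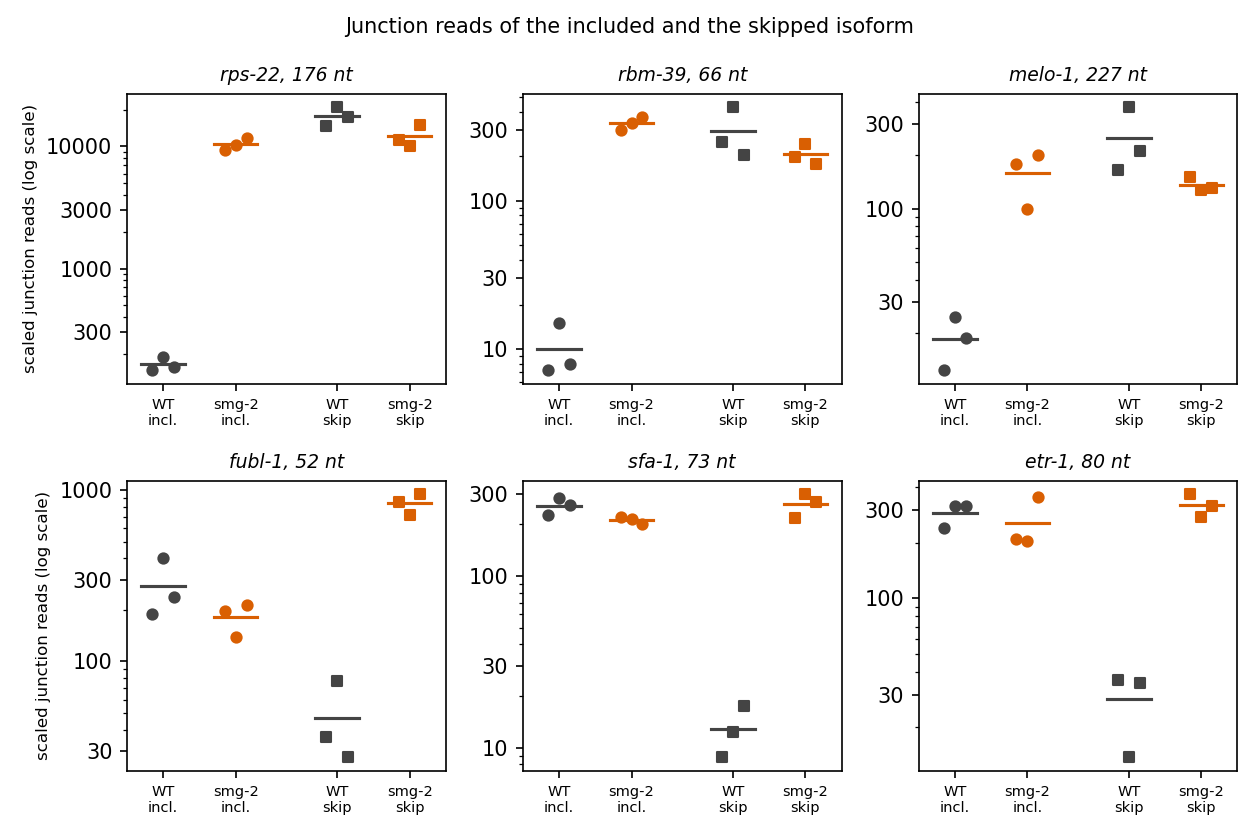
Scaled junction reads (y axis, log scale, with its own range in each panel) of the included (incl., circles) and skipped (skip, squares) isoform of 6 called exons in wild-type (WT, grey) and *smg-2* (orange). Points are libraries and bars are means of 3. The exons were called on the shares of these isoforms, so the gain of the isoform scarce in wild-type relative to the other follows from the call.

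Taking both isoforms together, junction reads were higher in every *smg-2* library than in any wild-type library for 52 of the 457 exons (11.4%). These include 7 of 32 exons that rose, 12 of 35 that fell and 33 of 390 not called (8.46%). Reads were lower in every *smg-2* library for 3 exons that rose, 1 that fell and 43 not called. The largest ratios among called exons with a median of over 100 junction reads were those of *tos-1* (log2 ratio 1.94) and *fubl-1* (1.66). Exons not called reached higher ratios, among them 3.71 in *nhr-195* (155 nt) and 3.00 in a 164-nt exon without a gene name. Such totals count only reads over these junctions, and no gene levels were used.

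The depth of the libraries limits what the comparison can resolve. Over the exons with a known total in a library, junction reads summed to between 47438 (*smg-2* replicate 3) and 160670 (wild-type replicate 1), with a median of 38 to 152 reads per exon. Of the 75 calls, 45 (17 that rose and 28 that fell) were kept with each library left out in turn, and all 75 kept their direction. Among the exons named by rule, the calls lost in this way were those of *fubl-3*, *hrpf-2* and *kvs-5*, given above, and of *W01B6.3*, *ttr-11*, *sav-1*, *C50H2.13*, *mig-22* and *Y105E8A.1*. The call on *W01B6.3* was lost without wild-type replicate 1 (adjusted p = 0.108) or 3 (0.0996), and that on *ttr-11* without wild-type replicate 1 (0.0992) or 3 (0.0776) or *smg-2* replicate 1 (0.0639). The call on *sav-1* was lost without wild-type replicate 1 (0.0632) or *smg-2* replicate 2 (0.0700) or 3 (0.0529), and that on *C50H2.13* without wild-type replicate 3 (0.0617) or *smg-2* replicate 1 (0.0712) or 2 (0.0719). The call on *mig-22* was lost without wild-type replicate 3 (0.0667) or any *smg-2* library (0.0839 to 0.108), and that on *Y105E8A.1* without any library (0.0662 to 0.152). All of these are adjusted p from limma. With limits of PSI set 0.1 points from either end of its range, the calls on *W01B6.3*, *ttr-11*, *C50H2.13*, *mig-22*, *Y105E8A.1*, *kvs-5*, *tos-1* and *unc-132* were lost.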

How the data were processed

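RNA-Seq was performed on poly(A) RNA of wild-type and *smg-2* animals, 3 libraries each. The authors aligned reads with STAR and measured splicing with JUM. The fraction of an event's junction usage that skips the exon was deposited per library, and 1 minus it was taken as PSI. The read count over the skipping junction was also deposited. Count divided by usage gave whole totals in 100% of the cells only when count names of wild-type and mutant were exchanged (24.9% as named). The usage names were kept, because the wild-type usage columns are the same in the tables of both mutants for all 620 events, as are the count columns named for the mutants. Columns with the authors' own comparisons (PSI change, p and adjusted p) were not used. Whether the usage denominator holds 1 or both inclusion junctions is not given in the sources used here, so inclusion reads were also halved as an alternative. No usage could be had in 3 cells without reads, which were treated as missing, and the total was unknown in 54 cells with no skipping read.

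The logit of PSI, limited to 1% to 99%, was fitted for all 498 exons by lmFit and eBayes of limma 3.58.1 in R 4.3.3, with Benjamini-Hochberg adjustment. Fits were checked on simulated data. Exons were placed in Ensembl transcripts of WBcel235, and all 498 had AG and GT or GC splice sites there. An exon was added to or removed from the fitting transcript with the longest coding sequence. Of the gene names, 34 were replaced by the current ones. Named exons were the 12 largest called rises and 12 largest called falls, called exons of 7 role lists, the 3 largest differences in lists without a call and among triplet exons of at most 30 nt, and the exons of *fubl-1*, *fubl-3*, *sfa-1*, *rsp-7*, *tnt-3*, *dhhc-4*, *aqp-2*, *par-3* and *dyn-1*, of which *rsp-7* and *tnt-3* have no exon among the 498. Members, lists and rule were chosen with earlier results of these data known. Alternatives changed the limits of PSI, the scale, the thresholds, the minimum of mean reads, the libraries and the test (edgeR 4.0.16 on reads). Figures and tables used Python 3.11.15, numpy 2.4.6, pandas 2.3.3 and matplotlib 3.10.9.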

Additional observations from a re-analysis of the deposited data

How the results depend on the processing

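Calls numbered 60 to 73 under other limits of PSI, without the logit and with a minimum mean of 20 or 50 junction reads. Single libraries could fall below that mean, which was taken over those with a known total. As reported 75 exons were called, with 88 at a change over 5 points and 85 at an adjusted p under 0.1. Without the logit the calls on *hrpf-2*, *kvs-5*, *ags-3* and *unc-132* were lost, and that on *hrpf-2* also with PSI limited to 5% and 95%. The number called was 65 with inclusion reads halved, 87 with all 9 libraries in the fit and 71 of 457 with edgeR on reads, which shared 66 calls with limma. At an adjusted p under 0.01 exons that rose numbered 21 and triplet exons called 8. At a change over 20 points 41 exons were called, 16 that rose and 25 that fell, 35 of them non-triplet and 6 triplet, and 33 had the early stop only in the isoform that gained share, against 59 as reported and 60 when any fitting coding transcript was allowed. With inclusion reads halved 18 rose and 47 fell, against 34 and 41 as reported. With each library left out in turn 54 to 72 exons were called, 21 to 30 that rose, 31 to 42 that fell, 45 to 59 non-triplet and 9 to 13 triplet, and 44 to 58 with the early stop only in the isoform that gained share. The lowest number that rose, 21, was without *smg-2* replicate 2, and the cause was not tested. Differences of exons not called changed sign in *par-3* (-4.25 to 2.62 points with each library left out, positive without wild-type replicate 2, and 0.858 without *smg-2* replicate 2), *aqp-2* (-6.00 to 3.58, positive without *smg-2* replicate 3) and *ttn-1* (-27.03 to 4.63, positive without *smg-2* replicate 2). Same-numbered libraries had correlations of their deviations of -0.00924, 0.119 and 0.157. For *smg-2* replicates 2 and 3 the same-numbered wild-type library correlated best, while *smg-2* replicate 1 correlated best with wild-type replicate 3 (0.0126). The numbers were not taken as pairs, a choice that these correlations do not settle. A fit with the replicate block called 63 exons (30 rose, 33 fell), 62 of them among the 75, and lost those of *kvs-5*, *ttr-11*, *Y105E8A.1*, *tos-1* and *unc-132* among the exons named. *smg-2* replicate 3, the shallowest library, correlated least with the others of its group (r = 0.808 and 0.818 over exons).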
